A study of Mus musculus with 10 samples.

Results

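Methionine sulfoxide reductases (MSRs) repair proteins by returning oxidized methionine to methionine. The mouse family has 4 genes, *Msra*, *Msrb1*, *Msrb2* and *Msrb3*, and all 4 were measured in gastrocnemius (GTN) muscle, each by 1 probe set of the 22206 on the array. Members were selected by gene symbol in the platform annotation. Where a symbol had several probe sets, the set was to be chosen by its mean signal over all 10 arrays, but no member had more than 1, so no measured value chose among them. The family was put forward with earlier results of these arrays known, in which *Msrb3* had been described, so its test here is no independent support.

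Oxidation of methionine gives a pair of stereoisomers of methionine sulfoxide. MSRA reduces the S form and the MSRB enzymes reduce the R form. MSRA is found in the cytosol and in mitochondria, MSRB1 is a selenoprotein of the cytosol and nucleus, MSRB2 is mitochondrial, and MSRB3 carries signals for the endoplasmic reticulum and, in some isoforms, for mitochondria. After each reaction an MSR is itself oxidized, and thioredoxin is its usual reductant. Thioredoxin is in turn kept reduced by thioredoxin reductases, of which TXNRD2 is the mitochondrial form.

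The samples were 5 control (ctrl) and 5 knockout (mTKO) male mice at postnatal day 60 on chow diet, 1 mouse per array. Mice of both genotypes carried floxed *Txnrd2* alleles on a C57BL/6 N background, and the mTKO mice also carried Cre recombinase under the human *ACTA1* promoter, whose activity is restricted to myofibers of all types and spares their stem cells. The ctrl mice had no Cre, so an effect of Cre itself and of *Txnrd2* loss cannot be told apart on these arrays. RNA came from whole muscle on Clariom S arrays, whose log2 signals the authors had normalized. In whole muscle, fewer cells of a type and less RNA per cell cannot be told apart.

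The log2 signal of the targeted gene *Txnrd2* was between 8.47 and 9.08 in ctrl and between 7.51 and 7.96 in mTKO, and the groups did not overlap. Array medians were between 6.06 and 6.14. Skeletal muscle genes were at the top of the scale in both genotypes, with a mean log2 signal of 8 listed markers (*Acta1*, *Ckm*, *Myh4*, *Myh1*, *Myh2*, *Tnnt3*, *Actn3* and *Pvalb*) of 18.89 to 18.93 in ctrl and 18.83 to 18.88 in mTKO. Signals of different probe sets are not on a common scale of abundance, so levels are compared below only within a gene.

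In mTKO muscle, *Msrb3* and *Msra* had lower mean signals than in ctrl, and *Msrb1* and *Msrb2* had slightly higher ones. None of these 4 differences passed limma's threshold of an adjusted p under 0.05, which 0.0045% of all probe sets passed (1 of 22206, *Mthfd2*). At an unadjusted p under 0.05 from limma, 1 member, *Msrb3*, was lower and 0 were higher, while 3.26% of all probe sets were lower and 3.1% were higher. In none of the 4 members were the genotypes fully separated, and 1.02% of all probe sets had groups that did not overlap.

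*Msrb3* encodes the reductase with isoforms in the endoplasmic reticulum and in mitochondria. Per the methods, these arrays do not quantify alternative splicing, so the signal cannot be assigned to either compartment. The log2 signal of *Msrb3* was 15.62, 15.29, 15.20, 15.03 and 15.19 in ctrl replicates 1 to 5 and 14.93, 14.35, 15.25, 14.84 and 14.89 in mTKO replicates 1 to 5. Of the 5 mTKO arrays, 4 lay below every ctrl array, and mTKO replicate 3 lay within the ctrl range. On average it was 15.27 ± 0.22 in ctrl and 14.85 ± 0.32 in mTKO (SD, n = 5 per genotype). Subtracting the ctrl from the mTKO average left -0.41 on the log2 scale, the direction used for every difference here, with a standard error of 0.18 (limma, adjusted p = 0.783).

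This difference was 1.33-fold, with a 95% interval of the mTKO to ctrl ratio from 0.576 to 0.978. The two-sided exact permutation test over the 252 assignments of arrays gave p = 0.0317, where the smallest p this design allows is 0.00794. The methods' t-test gave an unadjusted p of 0.0452 over the n = 5 arrays of each genotype, next to that exact permutation value, and the fold change was under the methods' threshold of 2. With an unadjusted p of 0.0355 from limma, *Msrb3* ranked 983 among the 22206 probe sets. Without the lowest array, mTKO replicate 2 at 14.35, the log2 difference was -0.29 (limma, unadjusted p = 0.111). Without ctrl replicate 1, the highest array, it was -0.33 (limma, unadjusted p = 0.0985), and without mTKO replicate 3 it was -0.51 (limma, unadjusted p = 0.0128).

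**Figure D1:**
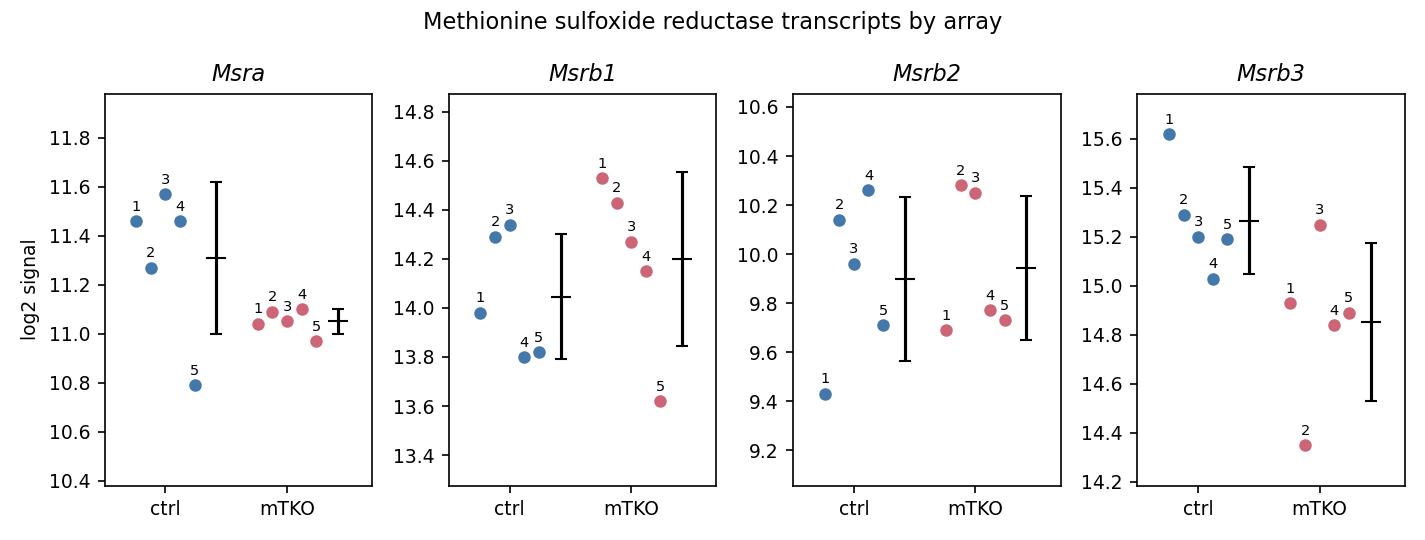
Log2 signal (vertical axes, all spanning the same number of log2 units) of the 4 reductase genes in 5 ctrl and 5 mTKO arrays, numbered by replicate, with the mean and SD of each group as black bars. For *Msrb3*, 4 of 5 mTKO arrays lay below all ctrl arrays; for *Msra*, 4 of 5 ctrl arrays lay above all mTKO arrays.

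*Msra* encodes the reductase for the S form. Ctrl replicates 1 to 5 had *Msra* log2 signals of 11.46, 11.27, 11.57, 11.46 and 10.79. Those of mTKO replicates 1 to 5 were 11.04, 11.09, 11.05, 11.10 and 10.97. Thus 4 of 5 ctrl arrays lay above every mTKO array, and ctrl replicate 5 lay below all of them. The mTKO arrays were close together, with an SD of 0.05 against 0.31 in ctrl, where replicate 5 gave most of the spread.

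*Msra* averaged 11.31 in ctrl and 11.05 in mTKO. This is a log2 difference of -0.26 whose 95% interval ran from -0.61 to 0.09 (standard error 0.16, limma, adjusted p = 0.850). The two-sided exact permutation test gave p = 0.111. Without ctrl replicate 5 the log2 difference was -0.39 (limma, unadjusted p = 0.0191, adjusted p = 0.766). Over all 10 arrays the interval of *Msra* thus included 0, and the size of its difference depended on that array.

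*Msrb1* is the selenoprotein gene of the family. Its ctrl replicates 1 to 5 read 13.98, 14.29, 14.34, 13.80 and 13.82 in log2 signal, and its mTKO replicates 1 to 5 read 14.53, 14.43, 14.27, 14.15 and 13.62. Of the mTKO arrays, 4 exceeded the average ctrl signal, 14.05, and replicate 5 lay below every ctrl array. The log2 difference was 0.15 with a standard error of 0.19 and a 95% interval from -0.25 to 0.56 (limma, adjusted p = 0.931). It ranged from 0.07 without mTKO replicate 1 to 0.30 without mTKO replicate 5.

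*Msrb2*, whose product is mitochondrial like TXNRD2, had 9.43, 10.14, 9.96, 10.26 and 9.71 in ctrl replicates 1 to 5. In mTKO replicates 1 to 5 its log2 signal was 9.69, 10.28, 10.25, 9.77 and 9.73. The groups overlapped, although ctrl replicate 1 lay below every mTKO array. The log2 difference was 0.04 with a standard error of 0.19, and its 95% interval from -0.37 to 0.45 corresponds to an mTKO to ctrl ratio between 0.776 and 1.37 (limma, adjusted p = 0.985). Its sign changed when 1 of several arrays was left out, with a range from -0.0735 to 0.134.

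**Figure D2:**
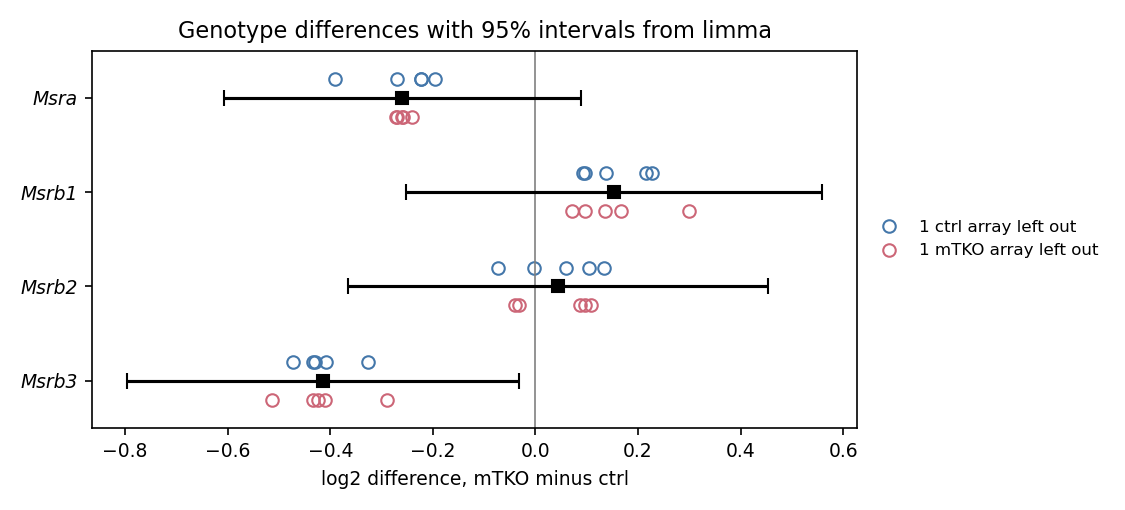
Log2 difference between mTKO and ctrl (horizontal axis) for each reductase gene, with the 95% interval from limma over all 10 arrays (black squares and bars) and the differences with 1 array left out (open circles, blue for ctrl and red for mTKO). The interval of *Msrb3* ran from -0.80 to -0.03, while those of the other members included 0.

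How far the members varied together was examined next. As a description, the deviations of each array from its genotype mean were correlated between members over the 10 arrays. Pearson's r was between -0.44 (*Msrb2* with *Msrb3*, Spearman's rho -0.54) and 0.34 (*Msra* with *Msrb1*, rho 0.18) over the 6 pairs. With the 2 arrays of most extreme *Msrb2* deviation left out, r of *Msrb2* with *Msrb3* was -0.13. With the 2 arrays of most extreme *Msra* deviation left out, r of *Msra* with *Msrb1* was -0.03.

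The same deviations of *Msrb3* and *Txnrd2* had r = 0.60 and rho = 0.60, and r = 0.42 without the 2 arrays farthest from the median of *Msrb3*. For *Msra*, *Msrb1* and *Msrb2* with *Txnrd2*, r was -0.08, -0.11 and -0.05. Without the 2 arrays farthest from the median of the respective member, these became -0.47, 0.35 and 0.30, so none of these values is stable. The mTKO array with the lowest *Msrb3* signal, replicate 2, had the highest log2 signal of the mitochondrial folate enzyme gene *Mthfd2*, 13.66 against 9.68 to 11.79 in the other mTKO arrays. *Mthfd2* was singled out after its values were seen. Over the deviations of all 10 arrays, however, *Msrb3* and *Mthfd2* had r = -0.43 and rho = -0.01, and r = 0.27 without the 2 arrays farthest from the median of *Msrb3*. For *Msrb1* and *Mthfd2* r was 0.51 and rho 0.48, and r was 0.39 without the 2 arrays farthest from the median of *Msrb1*. *Msra* and *Msrb2* had r = 0.13 and r = 0.37 with *Mthfd2*. All of these values come from the same arrays and share their normalization.

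Among 10010 other genes with a mean signal above the median of all probe sets, the deviations of *Slc38a4*, an amino acid transporter gene, were most like those of *Msrb3* (r = 0.96, 10 arrays). *Slc38a4* also had a lower mean in mTKO, with a log2 difference of -0.50 (standard error 0.19, limma, adjusted p = 0.765). The exoribonuclease gene *Xrn1* (r = 0.94) and the mitochondrial malic enzyme gene *Me3* (r = 0.94) followed, with log2 differences of -0.03 and -0.17. These values are descriptions: the candidates were many and the arrays only 10, all sharing 1 normalization.

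For the other members the most similar genes were of different kinds. *Ly96*, *Tex2* and *Ss18l1* were closest to *Msra* (r = 0.97, 0.95 and 0.95), and the low signal in ctrl replicate 5 weighs on these values. *Lgals9*, *Lcp1* and *Ephx1* were closest to *Msrb1* (r = 0.95, 0.94 and 0.93). *Lgals9* encodes galectin 9 and *Lcp1* an actin-bundling protein of leukocytes. *Xdh*, *Plbd1* and *Apol6* were closest to *Msrb2* (r = 0.96, 0.95 and 0.93). The log2 differences of these 9 genes were between -0.27 (*Xdh*) and 0.21 (*Ly96*).

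The genes next to the members in the RefSeq annotation (GRCm38.p6) were also compared. On chromosome 10, *Msrb3* has the measured neighbours *4921513I03Rik* and *Lemd3*, which encodes an inner nuclear membrane protein. Their log2 differences were 0.03 and 0.16, against -0.41 for *Msrb3*. On chromosome 14, *Msra* lies between *Prss52* (-0.11) and *Kif13b*, a kinesin gene with a log2 difference of -0.64 (standard error 0.26, limma, adjusted p = 0.768) and a mean signal of 5.92 in ctrl, below the median of all values of 6.10. The neighbours of *Msrb1* on chromosome 17, *Rpl3l* and *Hs3st6*, had -0.07 and -0.17, and those of *Msrb2* on chromosome 2, *Armc3* and *Ptf1a*, had 0.47 and 0.11. *4921513I03Rik*, *Prss52*, *Hs3st6*, *Armc3* and *Ptf1a* had mean signals of 3.36 to 3.97 in ctrl, far below the median of all values, so their differences carry little information on these arrays. None of these 8 genes passed limma's adjusted threshold.

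Genes of the thioredoxin and glutathione systems were examined next, as a list of 10 reductant supply genes. Not all of them encode enzymes that supply electrons to the MSRs. None of the 10 passed limma's adjusted threshold. At an unadjusted p under 0.05 from limma, 2 were lower (*Txnrd2*, the targeted gene, and *Glrx*) and 1 was higher (*Gsr*). Of all probe sets, 3.26% were lower and 3.1% higher at this threshold. For *Glrx*, the cytosolic glutaredoxin gene, mTKO minus ctrl was -0.59 in log2 signal, and for *Gsr*, the glutathione reductase gene, it was 0.34 (limma, adjusted p = 0.677 and 0.783). The thioredoxin genes *Txn1*, of the cytosol, and *Txn2*, of mitochondria, had log2 differences of 0.09 and -0.05, and *Txnrd1*, the cytosolic reductase gene, had 0.10. The other listed genes were *Txnip* (-0.36), *Glrx2* (0.04), *Glrx5* (0.20) and *Txnrd3* (0.002). The median difference of the list was 0.02, where that of all 19505 genes was 0.

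*Msrb1* was also set beside other selenoprotein genes, since its protein needs selenocysteine. Of 23 other selenoprotein genes, 16 were higher in mean in mTKO (49.68% of all genes were) and 7 lower. Their median difference was 0.03, with none past limma's adjusted threshold. At an unadjusted p under 0.05 from limma, 2 of the 23 were lower, where 3.26% of all probe sets were lower. These 2 were *Txnrd2*, the targeted gene, and the glutathione peroxidase gene *Gpx2*. *Gpx2* had -0.41 (standard error 0.16, limma, adjusted p = 0.768) at a signal below the median of all values.

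For the 10 genes of selenocysteine synthesis, insertion and breakdown, the median was -0.01 and none passed limma's adjusted threshold. *Sars*, the seryl-tRNA synthetase gene that charges the selenocysteine tRNA with serine and also serves all serine codons, was the exception in size. Its lowest mTKO array lay above its highest ctrl array, with a log2 difference of 0.70 (standard error 0.17, limma, adjusted p = 0.562). It was the 1 gene of the 10 whose groups did not overlap, where 1.02% of all probe sets had such groups. At an unadjusted p under 0.05 from limma, 1 of the 10 was higher and 0 were lower, where 3.1% and 3.26% of all probe sets were. The next in order of p was *Secisbp2l*, a paralog of the selenocysteine insertion factor gene, at 0.23.

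The endoplasmic reticulum, where isoforms of MSRB3 reside, also oxidizes and folds proteins. Of 10 measured genes of this process, 7 were higher in mean in mTKO (49.68% of all genes were), 2 lower and 1 equal. Their median log2 difference was 0.07, and none went past limma's adjusted threshold. *Txndc5*, a protein disulfide isomerase gene, had 0.32 (standard error 0.15, limma, adjusted p = 0.783), with every mTKO array above the ctrl mean. *Hspa5*, the gene of the chaperone BiP, had 0.24. The 3 *Mical* genes, whose products oxidize methionines of actin, had log2 differences of -0.14 (*Mical3*), -0.12 (*Mical2*) and 0.05 (*Mical1*), and none passed limma's adjusted threshold.

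Genes of proteins described as MSR substrates include those of the calcium/calmodulin-dependent kinase CaMKII, calmodulin and actin. Of 9 measured genes, 8 had a lower mean in mTKO, and the median log2 difference was -0.10 (-0.0525 without ctrl replicate 1), while 49.96% of all genes had a negative one. This median was the value of *Trpm6*, whose mean signal over all arrays, 3.66, was far below the median of all values. Without dim probe sets the median was -0.108. The differences ran from -0.42 to 0.002, with *Acta1* at -0.03 and *Camk2d* at -0.02. None of the 9 passed limma's adjusted threshold. At an unadjusted p under 0.05 from limma, where 3.26% of all probe sets were lower, 1 of the 9 was lower. This was *Camk2b*, a CaMKII subunit gene, at -0.42 (standard error 0.19, limma, adjusted p = 0.783). It was followed by the calmodulin gene *Calm3* at -0.30, and in both genes all 5 mTKO arrays lay below the ctrl mean.

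Of 5 measured methionine cycle and salvage genes, 4 had a higher mean in mTKO (49.68% of all genes did). Their median log2 difference was 0.19, with 0.0995 without mTKO replicate 1 and 0.295 without mTKO replicate 4, and none went past limma's adjusted threshold. *Mtap*, of methionine salvage, had 0.36 (standard error 0.16, limma, adjusted p = 0.783), with every mTKO array above the ctrl mean. *Mtr*, the methionine synthase gene, had -0.27.

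**Figure D3:**
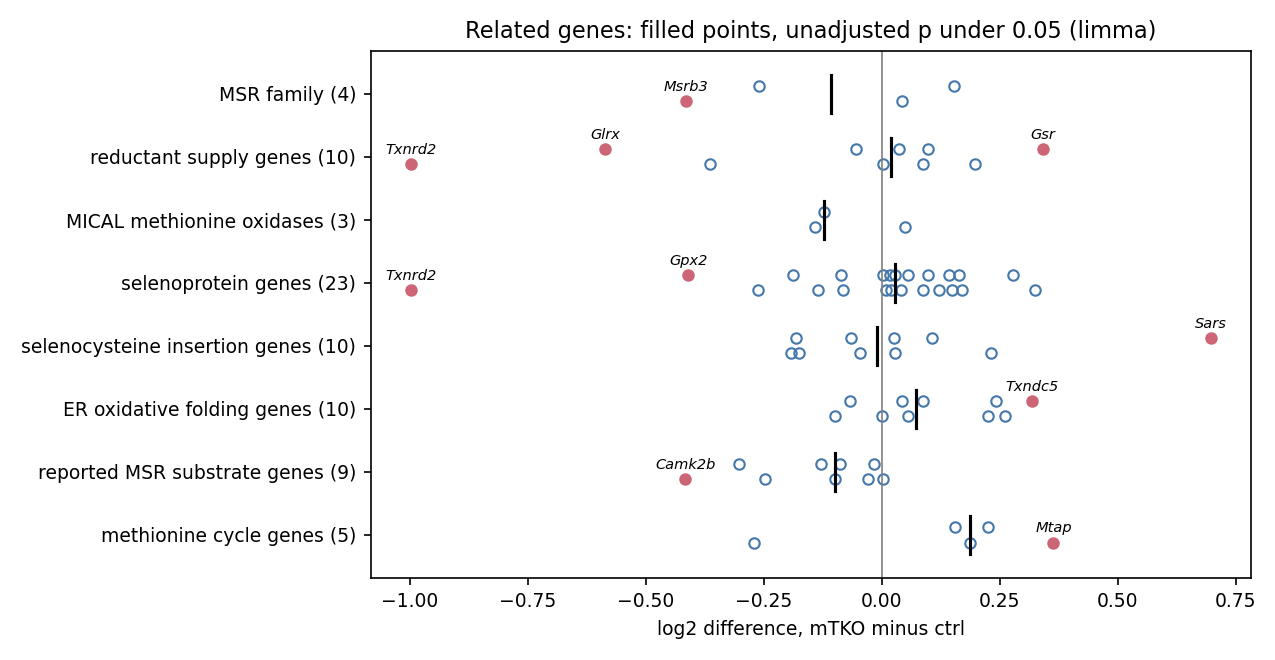
Log2 difference between mTKO and ctrl (horizontal axis) for the reductase family and 7 lists of related genes, 1 point per gene, with the number of measured genes in brackets and the list median as a black line. Filled red points are genes with an unadjusted p under 0.05 from limma; *Txnrd2* is in 2 lists, and *Msrb3* is the filled point of the family.

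Cell types other than myofibers also express MSRs, and their markers were compared beside the difference of *Msrb3*. Smooth muscle and pericyte markers were lower in mean in 6 of 6 genes, where 49.96% of all genes were lower. These markers had a median log2 difference of -0.24. Their mean log2 signal was between 10.63 and 10.95 in ctrl and between 10.29 and 10.74 in mTKO. The differences of these 6 markers were uneven. They were -0.48 for *Tagln* (limma, adjusted p = 0.783), -0.38 for *Myh11*, -0.36 for *Acta2* and -0.12 for *Cnn1*. *Rgs5* and *Pdgfrb* had only -0.10 and -0.002. At an unadjusted p under 0.05 from limma, 2 of the 6 were lower, where 3.26% of all probe sets were lower. The median was 0.04 for 5 endothelial markers, 0 for 5 fibroblast markers, 0.00 for 5 macrophage markers and 0.29 for 5 slow fibre markers. Of the slow fibre markers, 3 were higher in mean and 2 lower, with log2 differences from -0.29 to 0.41. At an unadjusted p under 0.05 from limma, 0 of them were higher and 0 lower. The mean log2 signal of the slow fibre markers was 13.70 to 14.20 in ctrl and 13.04 to 14.58 in mTKO. The median was -0.46 for 5 adipocyte markers (6.95 to 8.77 in ctrl and 6.50 to 8.35 in mTKO), 0.13 for 3 Schwann cell markers and 0.02 for 5 satellite cell markers. Neither the adipocyte nor the satellite cell markers went 1 way. Of the adipocyte markers, 4 were lower in mean and 1 higher, from -0.63 to 0.22. Of the satellite cell markers, 3 were higher and 2 lower, from -0.14 to 0.47. Mean signals lay below the median of all values for 2 adipocyte, 2 macrophage, 2 Schwann cell and 3 satellite cell markers, and for none of the smooth muscle and pericyte markers. At an unadjusted p under 0.05 from limma, the macrophage markers *Adgre1* and *Mrc1* had log2 differences of -0.54 and 0.44, the adipocyte marker *Lep* had -0.46 and the satellite cell marker *Pax7* had 0.47 (adjusted p from 0.759 to 0.783). *Adgre1*, *Lep* and *Pax7* had mean signals near or below the median of all values. The part of these cell types in the difference of *Msrb3* was not tested.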

How the data were processed

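Per the labels and the methods, the authors extracted RNA from GTN muscle, hybridized it to Clariom S mouse arrays and summarized probe sets as log2 signal by SST-RMA (Expression Console 1.4). These deposited log2 values are background corrected, normalized between arrays and rounded to 2 decimals, and they were used without further normalization or filter. The platform annotation gives 1 symbol for 19572 of 22206 probe sets, several for 0 and none for 2634. For 55 genes with several probe sets, the highest mean stood for the gene.

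The comparison of mTKO with ctrl used limma 3.58.1 under R 4.3.3 (lmFit, then eBayes with a prior of 7.53 degrees of freedom), and p-values were adjusted by Benjamini-Hochberg across the whole array, with an exact permutation test beside single genes. Error came from the spread between 5 mice per genotype, with 8 residual degrees of freedom, moderated by the prior that limma takes from all probe sets. For *Msra*, the standard error was 0.164 in limma and 0.141 in the t-test. Precision thus rests on these few mice and on that prior. The steps were tested on simulated data. Members, lists and tests were chosen with earlier results of these arrays known. Named genes were the members, *Txnrd2*, the 2 genes of smallest p and any gene without overlap in each list, the 3 genes most like each member and the measured neighbours. *Mat2a*, *Pdia4*, *Egfl7*, *Pdgfra* and *Cd68*, and a few other listed genes that are not reported here, were not analysed here. *Mthfd2*, *Gsr*, *Txn1*, *Txn2*, *Txnrd1*, *Mical1*, *Tagln*, *Adgre1*, *Mrc1*, *Lep* and *Pax7* fall outside that rule and were added after their values were seen. The same holds for *Txnip*, *Txnrd3*, *Glrx2*, *Glrx5*, *Trpm6*, *Camk2d*, *Acta1*, *Myh11*, *Acta2*, *Cnn1*, *Rgs5* and *Pdgfrb*. Plots used matplotlib 3.10.9 (Python 3.11).

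Alternatives were the methods' t-test, other variance models, array weights, other normalizations, a filter on dim probe sets, the replicate number as a block and leaving out each array. Reductase protein sequences and raw probe intensities were not used here.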

Additional observations from a re-analysis of the deposited data

Results flagged for a closer look

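Of the 76 groups of 5 arrays examined (the genes named by rule and *Mthfd2*, by genotype), 2 held an array far from the others of its group, and chance gives about 1 in 20. The log2 signal of *Rpl3l*, a neighbour of *Msrb1*, was 14.22 in ctrl replicate 3 against 14.68 to 14.85 in the other ctrl arrays. That of *Gpx2* was 4.78 in mTKO replicate 4 against 5.22 to 5.39 in the other mTKO arrays. Of the 8 groups of the reductase genes themselves, 0 held such an array, and ctrl replicate 5 of *Msra* came closest.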

How the results depend on the processing

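The t-tests, the trend and robust priors, the dim filter and the replicate block cannot change the log2 difference of a member. With array weights, other normalizations or 1 array left out, *Msra*, *Msrb1* and *Msrb3* kept its sign. No member passed an adjusted p under 0.05 in the 19 of 20 alternatives that give one, nor the methods' thresholds in the other. For *Msrb3* the adjusted p lay between 0.599 (eBayes with trend) and 0.915 from limma, and its log2 difference between -0.51 and -0.29 when 1 array was left out. For *Msra* these differences ran from -0.39 to -0.20. The difference of *Msrb2* changed sign without ctrl replicate 1, ctrl replicate 5, mTKO replicate 2 or mTKO replicate 3, and ran from -0.0735 to 0.134 when 1 array was left out. The methods' t-test with their thresholds gave 13 probe sets and after Benjamini-Hochberg adjustment 0, where limma gave 1. Limma gave 2 with a trend, 0 with a robust prior, 0 after quantile normalization and 3 without dim probe sets, and 0 to 1 when 1 array was left out. The causes of these changes were not tested.

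The labels number the replicates without saying whether same-numbered mice were paired. The deviations of same-numbered arrays correlated between -0.035 and 0.15 across genes. These values were not set against other pairs of arrays, so they cannot show whether a pairing exists. With the replicate number as a block, the log2 difference of *Msrb3* was -0.41 (limma, adjusted p = 0.750), and 1 probe set passed. The standard errors of *Msrb1* and *Msrb2* were both 0.17 with the block and 0.19 without it. Those of *Msra* and *Msrb3* were 0.16 and 0.18 in either fit. When 1 array was left out, the median log2 difference ran from -0.0245 to 0.0928 for reductant supply genes, -0.0175 to 0.097 for selenoprotein genes, -0.037 to 0.0268 for selenocysteine genes and -0.23 to 0.041 for the *Mical* genes, so its sign changed in these 4 lists. It ran from 0.044 to 0.128 for endoplasmic reticulum folding genes, -0.133 to -0.0525 for MSR substrates and 0.0995 to 0.295 for the methionine cycle. For 3 lists (the *Mical* genes, the MSR substrates and the methionine cycle), these alternatives were added after seeing the data. Averaging several probe sets of a member was not run, since each had 1.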
